A study of Homo sapiens with 4 samples.

Results

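Nuclear pore and nuclear lamina genes are described here in U87-MG, a line of human glioblastoma cells, in which MAGED2, an X-linked gene of the melanoma antigen family, was knocked down. The 38 genes were chosen by name from known components of these structures, with earlier results of these data known. All 38 were found by symbol among the 23444 entries of the deposited tables. Of the 38, 29 encode components of the nuclear pore and 9 encode lamins or proteins of the inner nuclear membrane. RNA sequencing covered 4 libraries, 2 of cells with a negative control hairpin (shCON) and 2 of cells with a hairpin against MAGED2 (shMAGED2), all of the same line. The series design calls the knockdown stable, whereas the labels' treatment text describes transient transfection, harvest at 36 h and hairpins against ZDHHC15. The labels do not say whether replicates came from different cultures, and each p-value therefore reflects only how far these 4 libraries scatter, which may be technical.

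Nuclear pores are large channels through the nuclear envelope, built from many copies of a set of proteins called nucleoporins. A scaffold of inner and outer rings is anchored in the membrane, nucleoporins rich in phenylalanine-glycine repeats fill the channel and form its selective barrier, and filaments reach into the cytoplasm and a basket into the nucleus. The lamina is a mesh of intermediate filament proteins, the lamins, beneath the inner nuclear membrane, where it binds chromatin and membrane proteins. In animal cells pores and lamina are taken apart when cells enter mitosis and rebuilt at its end, and dividing cells make further pores in interphase.

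The libraries held 28673774 to 36234336 counts. MAGED2 itself fell from 176 ± 2.56 to 19.8 ± 2.68 CPM (read counts scaled to the TMM-adjusted library size; mean ± SD, n = 2 libraries a group, as for every mean below), a log2 change of −3.16 (SE 0.13), and no library had a ZDHHC15 count, for which 0 counts allow up to 0.105 CPM in the shallowest library (a limit set by 3 counts, for counting error only). Of the glial markers, vimentin (7751.0 CPM in shCON) and CD44 (884.7 CPM) were abundant, while GFAP (2.65 CPM), S100B (0.252 CPM) and SOX2 (0.0573 CPM) were low. Nestin (NES) rose from 5.19 ± 0.658 to 19.0 ± 0.394 CPM (log2 change 1.88, SE 0.18; adjusted p = 0.002), and OLIG2 fell from 5.46 ± 0.427 to 1.99 ± 0.311 CPM (−1.45, SE 0.27; adjusted p = 0.0158), a call lost without shCON replicate 1 (0.0674) or 2 (0.0936). The epithelial list and the endothelial list, each summed on its own, stayed between 1.52 and 3.97 CPM in every library. The immune list summed to 380.3 to 603 CPM, nearly all of it CD68, with PTPRC at 0.771 CPM in shCON. The neuronal list summed to 136.7 and 128.1 CPM in shCON against 224.6 and 263.1 CPM in shMAGED2, nearly all of it the tubulin gene TUBB3, which rose (log2 change 0.88, SE 0.11; adjusted p = 0.0049). The part of these marker changes in the results below was not tested.

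Levels in shMAGED2 were set against those in shCON to ask which of these transcripts differ when MAGED2 is low. A total of 37 genes had enough counts to be tested, and 16 of them rose at an adjusted p under 0.05 (edgeR quasi-likelihood test, Benjamini-Hochberg over all 15293 genes tested), which is 43.2%, where 12.3% of all genes tested rose. None fell, where 11.6% of all genes tested fell; in either direction 23.9% of all genes were called. DESeq2 and limma-voom also called 0 falls, and at an unadjusted p under 0.05 the edgeR test gave 1 member lower (SUN1) and 25 higher, where 18.6% of all genes tested were lower and 19.3% higher. The median log2 change was 0.44, against 0.003 over all genes tested. Because the list was chosen with earlier results of these data known, these shares describe the list and do not test it. Changes of at least 2-fold were found for 5 members (LMNB1, TMPO, NDC1, NUP188 and NUP205), where 4.43% of all genes rose and 4.62% fell by at least 2-fold. Both shMAGED2 libraries lay above both shCON libraries for 31 of the 37 members and below them for 2, where 33.0% of all genes lay above and 33.0% below.

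The count of rises depended on which library was left out. It was 6 without shCON replicate 1 and 9 without shCON replicate 2, where 3.59% and 4.12% of all genes rose, and no member fell where 3.37% and 3.85% of all genes fell. It was 26 without shMAGED2 replicate 1 and likewise 26 without shMAGED2 replicate 2, where 21.1% and 23.5% of all genes rose; 1 member (SUN1) and 3 members (NUP133, RAE1 and SUN1) fell there, where 20.0% and 23.5% of all genes fell. The 6 genes that passed in every one of these fits were LMNB1, TMPO, NUP188, NUP205, NUP155 and NDC1. A lone library is assumed there to vary like the other group, so the scatter comes only from the pair left whole. Without an shMAGED2 library that is the shCON pair, with a median absolute log2 gap of 0.11 over all genes, against 0.25 in shMAGED2. A pass there leaves out the wider scatter of shMAGED2.

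**Figure D1:**
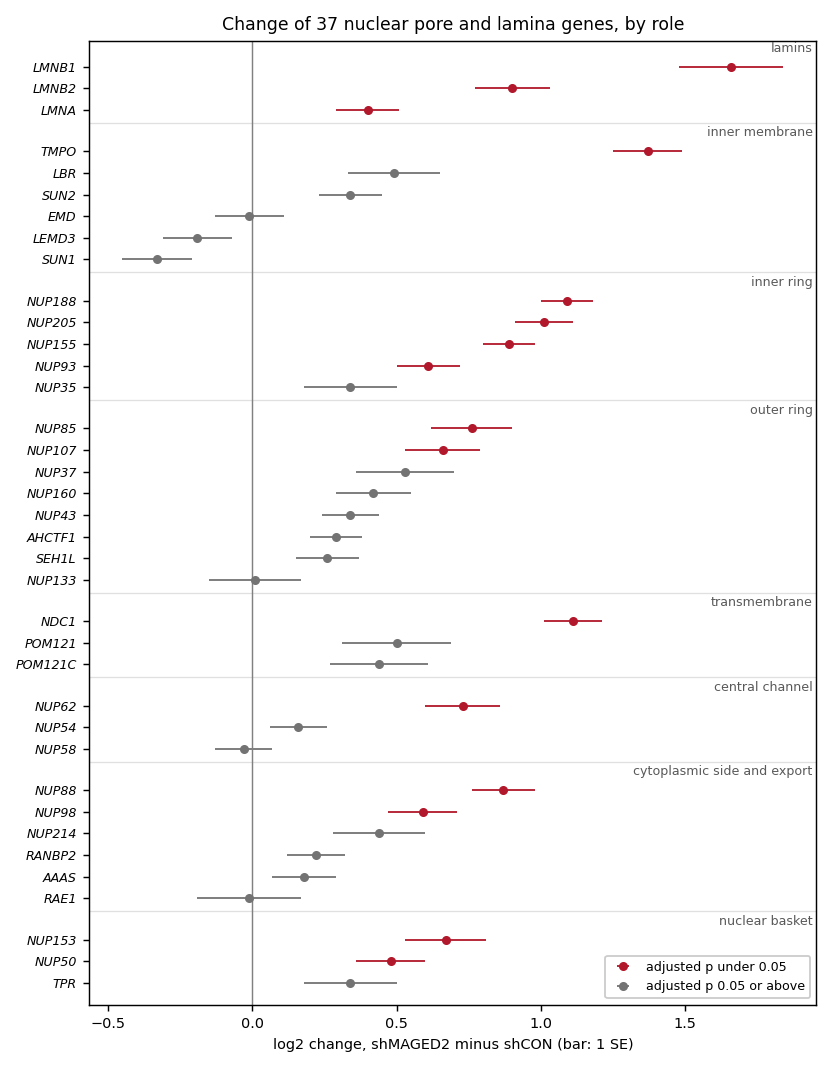
Log2 change (x axis, shMAGED2 minus shCON, bars 1 SE) of the 37 tested members, 1 row a gene, grouped by place in the pore or envelope; red points passed an adjusted p of 0.05. LMNB1 lies farthest to the right at 1.66, and no red point lies left of 0.

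All 3 lamin transcripts rose, where 12.3% of all genes tested did. The fold was larger for the B-type lamins than for LMNA, and the difference between them was not tested. LMNB1 and LMNB2 encode lamins B1 and B2, which keep a farnesyl anchor and stay bound to the membrane, and LMNA encodes lamins A and C, whose transcripts a gene total does not separate. The windows around the 3 lamin start sites are shown because the genes differed in size of change; each holds 250 bases before and 50 after a RefSeq start (GRCh38.p14), 5′ to 3′, for LMNB1 at chr5:126776373-126776672 (plus strand), LMNB2 at chr19:2456910-2457209 (minus strand) and LMNA at chr1:156082323-156082622 (plus strand). Capitals mark matches, on either strand, to CCAAT (the box bound by NF-Y), TTTGAA (the cell cycle homology region), TTTCCCGC or TTTGGCGC (E2F sites), the NRF1 site and CCGGAAG (an ETS site), a set chosen after the values were known.
LMNB1: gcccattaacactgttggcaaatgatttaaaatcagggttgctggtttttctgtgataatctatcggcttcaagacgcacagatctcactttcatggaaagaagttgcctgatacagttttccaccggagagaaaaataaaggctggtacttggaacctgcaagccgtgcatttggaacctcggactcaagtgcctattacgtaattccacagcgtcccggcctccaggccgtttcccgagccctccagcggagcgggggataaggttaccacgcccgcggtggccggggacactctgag
LMNB2: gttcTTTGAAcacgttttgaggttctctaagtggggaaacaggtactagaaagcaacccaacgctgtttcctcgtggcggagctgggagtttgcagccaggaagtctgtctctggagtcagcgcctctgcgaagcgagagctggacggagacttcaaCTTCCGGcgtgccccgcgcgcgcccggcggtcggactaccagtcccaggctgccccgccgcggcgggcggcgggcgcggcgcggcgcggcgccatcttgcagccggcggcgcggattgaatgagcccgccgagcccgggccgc
LMNA: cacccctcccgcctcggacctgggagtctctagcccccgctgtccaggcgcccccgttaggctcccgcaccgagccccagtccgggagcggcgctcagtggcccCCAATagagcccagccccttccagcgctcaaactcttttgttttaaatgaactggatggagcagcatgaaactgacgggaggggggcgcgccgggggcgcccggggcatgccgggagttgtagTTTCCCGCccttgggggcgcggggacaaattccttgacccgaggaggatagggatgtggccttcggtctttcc
The LMNB1 window held none of these letters. The LMNB2 window held TTTGAA and an ETS match, and the LMNA window a CCAAT box 146 bases and an E2F match 23 bases before the start. Each window is that of the RefSeq start nearest the GENCODE gene start. Other starts of these genes, where present, are not described, so a window need not be that of the start most used in these cells.

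LMNB1 (ENSG00000113368, protein coding, chromosome 5, 126776623 to 126837020, plus strand) was at 24.6 and 18.7 CPM in shCON and at 61.4 and 75.4 CPM in shMAGED2. Its groups were far apart, although its shCON libraries differed more than those of any other member tested. It rose 3.15-fold (log2 change 1.66, SE 0.18; adjusted p = 0.00291). LMNB2 (ENSG00000176619, protein coding, chromosome 19, 2427638 to 2456996, minus strand) was at 202.5 and 219.8 CPM in shCON against 348.8 and 438.7 CPM in shMAGED2. Both knockdown libraries were higher, with shMAGED2 replicate 2 highest, and the log2 change was 0.90 (SE 0.13; adjusted p = 0.00751). Without shCON replicate 1 LMNB2 missed the threshold (adjusted p = 0.0618). It overlaps TIMM13 on the same strand, so that some reads could be assigned to either gene.

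LMNA (ENSG00000160789, protein coding, chromosome 1, 156082573 to 156140089, plus strand) was at 746.8 and 714.8 CPM in shCON and at 880.9 and 1050.9 CPM in shMAGED2. The groups did not overlap, and shMAGED2 replicate 2 was again the highest library. Its log2 change of 0.40 (SE 0.11) passed narrowly, at an adjusted p = 0.0499. That call ended under 9 of 15 alternatives, among them DESeq2 size factors (0.0502), without shCON replicate 1 (0.329) and without shCON replicate 2 (0.406), and its adjusted p ranged from 1.32e-10 to 0.406 over all 15.

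Compared per length, LMNA was the most abundant member in every library. The authors' FPKM values (fragment counts scaled for gene length and library size) were 227 ± 7.19 for LMNA, 44.4 ± 2.56 for LMNB2 and 7.43 ± 1.42 for LMNB1 in shCON. They were 289 ± 50.1, 79.9 ± 16.7 and 22.5 ± 4.37 in shMAGED2. The FPKM ratio of both B-type lamins to LMNA was 0.22 and 0.237 in shCON and 0.345 and 0.361 in shMAGED2, so that the groups did not overlap. The mean ratio was 1.55-fold higher in shMAGED2 and 1.49-fold to 1.61-fold higher with 1 library left out; 2 libraries a group do not allow an exact permutation p under 0.05, and no test was made. LMNB1 made up 2.34% to 2.98% of the lamin FPKM in shCON and 5.7% to 5.8% in shMAGED2.

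**Figure D2:**
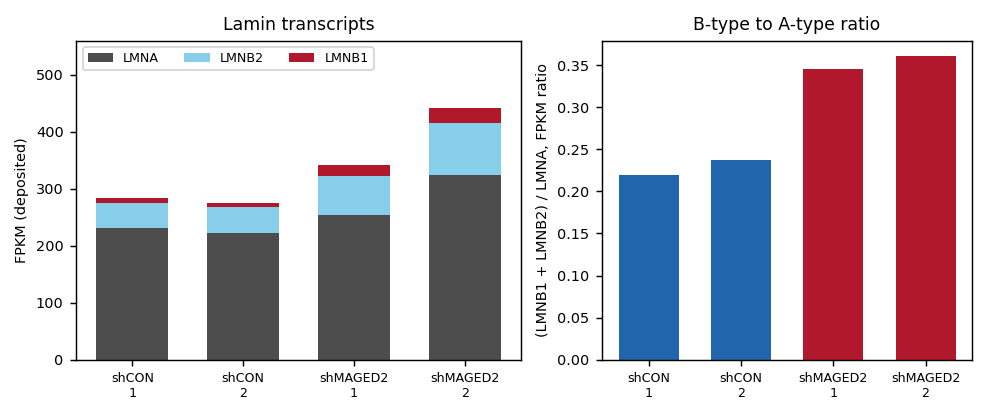
Left, deposited FPKM (y axis) of LMNA, LMNB2 and LMNB1 stacked for each of the 4 libraries; right, the ratio of LMNB1 plus LMNB2 to LMNA in each library. The ratio is 0.22 and 0.237 in shCON and 0.345 and 0.361 in shMAGED2.

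Of 6 inner nuclear membrane genes, 1 rose past the threshold (16.7%), where 12.3% of all genes tested did. TMPO encodes lamina-associated polypeptide 2, which binds lamins and the chromatin protein BANF1. Its window (chr12:98515323-98515622, plus strand, GRCh38.p14) is shown because TMPO had the second largest change of the 37 tested members, and it held a pair of CCAAT boxes, 47 and 15 bases before the start:
TMPO: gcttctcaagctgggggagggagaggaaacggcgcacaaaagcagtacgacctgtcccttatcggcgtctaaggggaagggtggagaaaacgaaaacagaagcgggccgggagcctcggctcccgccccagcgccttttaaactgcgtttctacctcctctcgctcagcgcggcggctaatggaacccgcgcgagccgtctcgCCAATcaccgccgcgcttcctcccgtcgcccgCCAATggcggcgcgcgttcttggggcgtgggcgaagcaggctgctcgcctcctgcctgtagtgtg
TMPO (ENSG00000120802, protein coding, chromosome 12, 98515512 to 98550379, plus strand) was at 44.6 and 43.4 CPM in shCON and at 104.4 and 122.5 CPM in shMAGED2. The lowest knockdown library was above the highest control library, and the log2 change was 1.37 (SE 0.12; adjusted p = 0.00153).

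The other inner membrane genes did not pass. LBR, the lamin B receptor, which is also a sterol reductase, was at 44.1 and 46.4 CPM in shCON and at 54.4 and 72.3 CPM in shMAGED2 (log2 change 0.49, SE 0.16; adjusted p = 0.0725). DESeq2 called LBR (adjusted p = 0.0365), as did edgeR without a count filter (0.0386). LBR also passed where either shMAGED2 library was left out, with the scatter taken from the shCON pair alone. SUN1 and SUN2 span the inner membrane and bind nesprins, which tie the nucleus to the cytoskeleton. SUN1 was at 122.2 and 130.1 CPM in shCON against 92.0 and 108.7 CPM in shMAGED2, and SUN2 at 45.2 and 43.7 against 55 and 57.7 CPM. Neither gene's groups overlapped, with SUN1 lower (log2 change −0.33, SE 0.12; adjusted p = 0.0906) and SUN2 higher (0.34, SE 0.11; adjusted p = 0.0643). SUN1 and SUN2 passed only where an shMAGED2 library was left out, with the scatter taken from the shCON pair alone. Emerin (EMD) had a log2 change of −0.01 (SE 0.12) with overlapping groups, and LEMD3, which binds SMAD proteins, had −0.19 (SE 0.12).

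Of 5 inner ring genes, 4 rose (80.0%), where 12.3% of all genes tested did, with a median log2 change of 0.89. The inner ring is the core scaffold that lines the membrane and holds the channel proteins. The NUP205 window (chr7:135557667-135557966, plus strand, GRCh38.p14) is shown as that of a scaffold gene that rose 2.01-fold, with TTTGAA 165 and CCAAT 148 bases before the start:
NUP205: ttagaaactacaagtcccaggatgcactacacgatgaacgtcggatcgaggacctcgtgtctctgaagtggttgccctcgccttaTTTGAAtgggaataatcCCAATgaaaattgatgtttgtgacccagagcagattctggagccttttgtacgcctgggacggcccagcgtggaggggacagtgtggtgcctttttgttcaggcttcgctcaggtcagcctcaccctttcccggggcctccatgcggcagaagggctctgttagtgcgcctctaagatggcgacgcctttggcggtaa
NUP205 (ENSG00000155561, protein coding, chromosome 7, 135557919 to 135648757, plus strand) and NUP188 (ENSG00000095319, protein coding, chromosome 9, 128947699 to 129007096, plus strand) encode the large related adaptors of this ring. The NUP188 window, not shown, held none of the marked letters, although NUP188 rose 2.13-fold. NUP205 was at 138.9 and 132.2 CPM in shCON and at 258.6 and 285.7 CPM in shMAGED2 (log2 change 1.01, SE 0.10; adjusted p = 0.00208). NUP188 was at 95 and 90.8 CPM against 198.5 and 197.5 CPM (1.09, SE 0.09; adjusted p = 0.00138), the smallest p of any member. The NUP188 libraries lay close together within each group and far apart between groups; NUP188 overlaps AL672142.1 on the same strand, and 4.18% of the 50-base windows of its longest coding transcript also occur in that gene.

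NUP155, which binds membrane and links the rings, rose from 76.9 ± 1.37 to 142 ± 5.44 CPM (0.89, SE 0.09; adjusted p = 0.0026). NUP93, the linker that recruits the channel trimer, rose from 66.9 ± 0.371 to 102 ± 10.8 CPM (0.61, SE 0.11; adjusted p = 0.015). NUP93 missed the threshold without shCON replicate 1 (0.142), without shCON replicate 2 (0.135) and, at 0.05 after rounding, on log2(FPKM + 0.1). NUP35, a small membrane-binding component, had the lowest FPKM of all members tested in shCON (6.19 ± 0.145) and was at 10.2 and 9.65 CPM against 12.6 CPM in both knockdown libraries (0.34, SE 0.16; adjusted p = 0.187).

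Of 8 outer ring genes, 2 rose (25.0%), where 12.3% of all genes tested did. All 8 changes were positive, though that of NUP133 was near 0 and turned sign with upper-quartile factors, library size alone and 7 other alternatives. The outer ring is made of Y-shaped complexes, which also bind kinetochores in mitosis, and AHCTF1 (ELYS) brings them to chromatin when pores are rebuilt. SEC13, a further subunit of these complexes, is not among the 8 and fell (log2 change −0.47, SE 0.10), as described below. The NUP107 window (chr12:68686728-68687027, plus strand, GRCh38.p14) is shown because it carried the NRF1 letters, 84 bases before the start, besides a pair of ETS matches and a CCAAT match on the reverse strand:
NUP107: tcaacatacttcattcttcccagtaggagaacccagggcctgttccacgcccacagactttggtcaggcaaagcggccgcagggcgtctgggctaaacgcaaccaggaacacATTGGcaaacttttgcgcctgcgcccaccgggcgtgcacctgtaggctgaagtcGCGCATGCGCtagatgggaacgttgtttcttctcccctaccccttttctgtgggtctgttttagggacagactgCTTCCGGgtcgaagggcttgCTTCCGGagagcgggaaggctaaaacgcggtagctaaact
NUP85 was at 31.7 and 36.4 CPM in shCON and at 52.6 and 62.9 CPM in shMAGED2 (log2 change 0.76, SE 0.14; adjusted p = 0.0153). NUP107 was at 51.6 and 54.9 CPM against 76.7 and 92.1 CPM (0.66, SE 0.13; adjusted p = 0.016). In both genes the knockdown libraries were higher and shMAGED2 replicate 2 was the highest. Without shCON replicate 1 both missed the threshold (0.136 for NUP85, 0.147 for NUP107), and NUP107 also did so without shCON replicate 2 (0.0887) and on log2(FPKM + 1) (0.0558) and log2(FPKM + 0.1) (0.0571).

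The other outer ring genes had smaller or less even changes. NUP37 (0.53, SE 0.17; adjusted p = 0.0775) and NUP160 (0.42, SE 0.13; adjusted p = 0.0699) did not pass but were called by DESeq2 (0.0418 and 0.0473) and by edgeR without a count filter (0.0429 and 0.047). Without shMAGED2 replicate 1 both passed, and NUP160 also without shMAGED2 replicate 2, with the scatter taken from the shCON pair alone. NUP43 (0.34, SE 0.10), AHCTF1 (0.29, SE 0.09) and SEH1L (0.26, SE 0.11), a protein shared with the amino acid sensing complex GATOR2, were higher in both knockdown libraries and had adjusted p-values of 0.0637, 0.0685 and 0.151. NUP43 and AHCTF1 passed only where an shMAGED2 library was left out, and SEH1L only without shMAGED2 replicate 1. The scatter there is taken from the shCON pair alone. AHCTF1 shares 48.4% of its transcript windows with other genes, mainly the pseudogene AHCTF1P1, so its counts depend on how shared reads were assigned.

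The groups overlapped for NUP133, another Y complex subunit. It was at 62.2 and 58.8 CPM in shCON and at 51.7 and 69.7 CPM in shMAGED2, with 1 knockdown library below and 1 above both controls. Its log2 change was 0.01 (SE 0.16, adjusted p = 0.983) and its sign turned under 9 of 15 alternatives, with −0.23 without shMAGED2 replicate 2.

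Among the transmembrane nucleoporins, which anchor the pore in the envelope, NDC1 rose. Its window is shown as that of the tested pore gene with the largest change (chr1:53838247-53838546, minus strand, GRCh38.p14; its RefSeq start lies 564 bases from the GENCODE gene start), with TTTGAA 31 bases before the start:
NDC1: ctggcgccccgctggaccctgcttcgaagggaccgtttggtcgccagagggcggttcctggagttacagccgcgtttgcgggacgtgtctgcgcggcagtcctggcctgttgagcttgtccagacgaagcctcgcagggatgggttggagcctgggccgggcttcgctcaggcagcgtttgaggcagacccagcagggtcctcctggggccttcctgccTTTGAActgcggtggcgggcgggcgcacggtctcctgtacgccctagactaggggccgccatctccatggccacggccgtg
NDC1 (ENSG00000058804, protein coding, chromosome 1, 53765460 to 53838860, minus strand) was at 55.5 and 53.7 CPM in shCON and at 114.4 and 120.8 CPM in shMAGED2. It rose 2.15-fold (log2 change 1.11, SE 0.10; adjusted p = 0.00158), and the spread within each group was small beside the gap between them.

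POM121 and POM121C are genes on chromosome 7 that share long stretches of sequence. POM121 holds 52.1% of the 50-base windows of the POM121C transcript, and POM121C holds 25.7% of those of the POM121 transcript. How reads in the shared stretches were divided between the pair is uncertain. POM121 was at 113.1 and 109.1 CPM in shCON and at 188.5 and 125.4 CPM in shMAGED2, and POM121C at 99.2 and 96.6 against 155.2 and 110.8 CPM. Both were higher in both knockdown libraries, and in both shMAGED2 replicate 1 was far above replicate 2. Their log2 changes were 0.50 (SE 0.19; adjusted p = 0.114) and 0.44 (SE 0.17; adjusted p = 0.109). Both passed only where an shMAGED2 library was left out, with POM121 at 0.18 without replicate 1 and 0.76 without replicate 2. The scatter there is that of the shCON pair alone, whose POM121 gap was −0.05, against −0.59 in shMAGED2. NUP210, a membrane nucleoporin made in some differentiated cell types, was too low to be tested: it had 4 and 6 counts in shCON and 0 in both shMAGED2 libraries. Over each group this is 0.159 CPM against a limit of 0.0445 CPM from 3 counts, a ratio of 3.57. That ratio leaves out the counting error of the 10 shCON counts.

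Of the central channel trimer, which carries phenylalanine-glycine repeats, NUP62 rose. It was at 86.1 and 87.3 CPM in shCON and at 159.5 and 129 CPM in shMAGED2 (log2 change 0.73, SE 0.13; adjusted p = 0.0118). Its groups did not overlap, with shMAGED2 replicate 1 the highest. NUP62 missed the threshold without shCON replicate 1 (0.0932) and replicate 2 (0.0703), overlaps IL4I1 on the same strand, and shares 18.9% of its transcript windows with other genes. Its partners had smaller values: NUP54 had a log2 change of 0.16 (SE 0.10; adjusted p = 0.325), and NUP58 one of −0.03 (SE 0.10; adjusted p = 0.864), at 76.1 and 82 CPM against 78 and 77.1 CPM. The differences between the 3 subunits were not tested.

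On the cytoplasmic side, 2 of 6 genes rose (33.3%), where 12.3% of all genes tested did. NUP88 and NUP214 form a complex that serves export of messenger RNA and of cargo of the exportin XPO1. NUP88 was at 33.3 CPM in both shCON libraries and at 64.2 and 57.9 CPM in shMAGED2 (log2 change 0.87, SE 0.11; adjusted p = 0.00514; 0.0523 without shCON replicate 1). NUP214 was at 78.2 and 79.9 against 123.5 and 91.2 CPM (0.44, SE 0.16, adjusted p = 0.0935). It passed only where an shMAGED2 library was left out, with the scatter taken from the shCON pair alone. Both shMAGED2 libraries were higher in each gene, more evenly in NUP88 than in NUP214.

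NUP98, whose precursor is cut into NUP98 and the Y complex protein NUP96, rose from 134 ± 3.58 to 201 ± 28.5 CPM (0.59, SE 0.12; adjusted p = 0.0209). It missed the threshold on log2(FPKM + 1) (0.0588), on log2(FPKM + 0.1) (0.0604), without shCON replicate 1 (0.18) and without shCON replicate 2 (0.132). RAE1, its partner in RNA export, was at 68.6 and 59.8 CPM in shCON and at 53.1 and 74.2 CPM in shMAGED2, so that the groups overlapped (−0.01, SE 0.18; adjusted p = 0.968). RAE1 was at −0.28 without shMAGED2 replicate 2 and at 0.21 without shMAGED2 replicate 1. RANBP2 (NUP358), the main protein of the cytoplasmic filaments, had 0.22 (SE 0.10, adjusted p = 0.168) and shares 26.6% of its transcript windows with the RGPD genes. AAAS (ALADIN) had 0.18 (SE 0.11; adjusted p = 0.284).

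Nuclear basket genes were higher in all libraries with the knockdown, and 2 of 3 passed (66.7%), where 12.3% of all genes tested rose. NUP153, which tethers the basket and binds lamins, was at 50.3 and 47.9 CPM in shCON and at 87.8 and 69 CPM in shMAGED2 (log2 change 0.67, SE 0.14; adjusted p = 0.0222). NUP50, a cofactor of importin-mediated import, was at 40.8 and 46.9 against 61.6 and 60.5 CPM (0.48, SE 0.12, adjusted p = 0.0341). NUP50 shares 15.3% of its transcript windows with other genes, mainly AL133268.1 (12.1%). NUP153 missed the threshold without shCON replicate 1 (0.116) and replicate 2 (0.137), and NUP50 without the same libraries (0.359 and 0.155), with library size alone (0.0594) and on both FPKM scales (0.0982 and 0.1). TPR, the basket's main filament protein, was at 168.1 and 185.0 CPM in shCON and at 258.7 and 189.8 CPM in shMAGED2. Its second knockdown library lay just above the higher control, and its log2 change was 0.34 (SE 0.16, adjusted p = 0.173). TPR passed only without shMAGED2 replicate 2, with the scatter taken from the shCON pair alone.

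**Figure D3:**
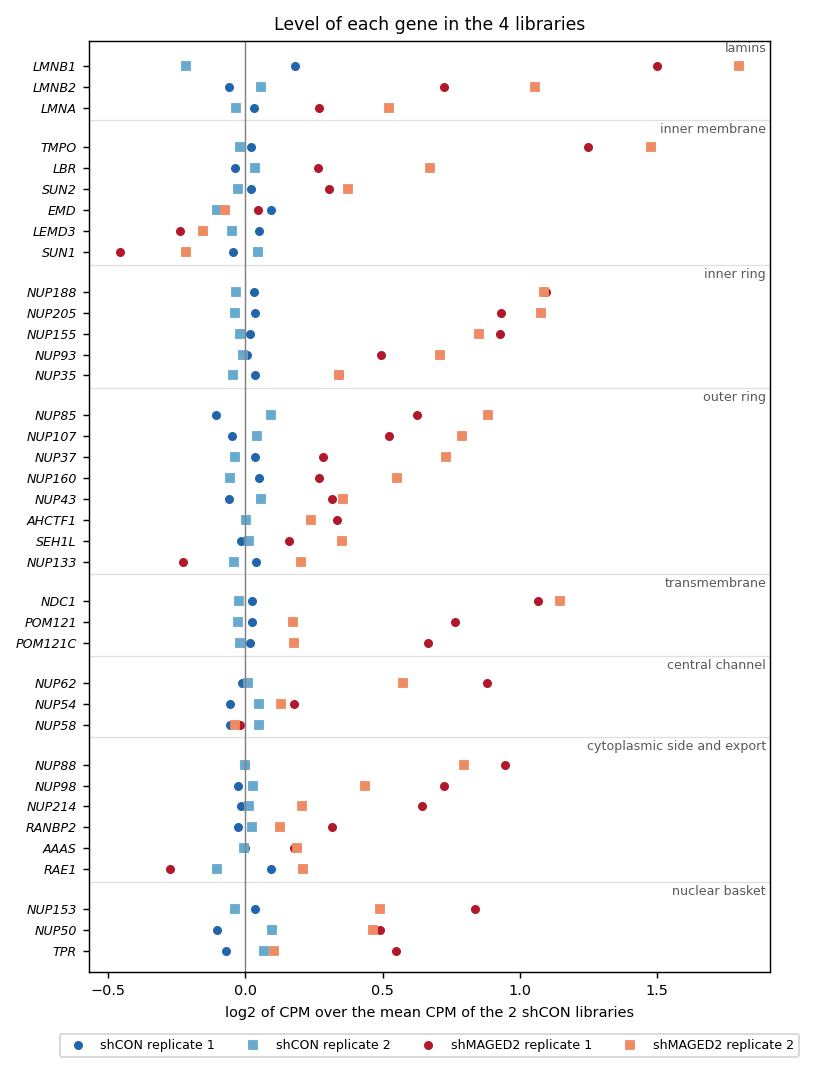
Level of each tested member in each of the 4 libraries, as log2 of its CPM over the mean of the shCON libraries (x axis), grouped by role; blue symbols are shCON, red and orange shMAGED2. In 31 of 37 rows both shMAGED2 symbols lie to the right of both shCON symbols.

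The shMAGED2 libraries differed from each other, as they did over all genes. The median absolute gap between replicates was 0.23 (log2) over the 37 members in shMAGED2 and 0.07 in shCON, against 0.25 and 0.11 over all genes tested. Outer ring genes were higher in shMAGED2 replicate 2 in 7 of 8 cases, by up to 0.45 (NUP37), and all 3 lamins were higher there by 0.25 to 0.33. Central channel and basket genes were lower there in 6 of 6 cases, by 0.02 to 0.45, and POM121 was lower by 0.59. Other groups went both ways: 2 of 6 cytoplasmic side genes were higher there and 4 lower (−0.44 to 0.48), 3 of 5 inner ring genes were higher and 2 lower (−0.08 to 0.22), 5 of 6 inner membrane genes were higher and 1 lower (−0.12 to 0.41), and NDC1 was higher by 0.08. No test of a difference between roles was made. In shCON the gaps of these groups did not exceed 0.20 in size, except LMNB1 at −0.40. Outer ring genes summed to 563.3 and 632.5 CPM in shMAGED2 replicates 1 and 2, and basket genes to 408.1 and 319.3 CPM. The cause of these gaps was not tested.

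**Figure D4:**
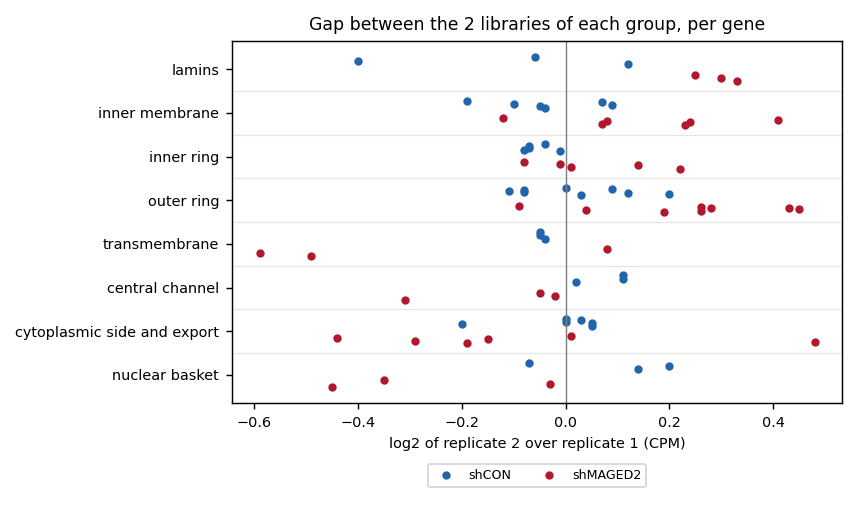
Log2 of replicate 2 over replicate 1 in CPM (x axis) for each tested member, by role, within shCON (blue) and within shMAGED2 (red). The red points of lamins and of most outer ring genes lie right of 0, and those of the central channel and basket left of 0.

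Start-site windows were found in RefSeq for 35 of the 38 members. The start used lay farthest from the GENCODE gene start for SUN2 (38145 bases), NUP35 (6930), AAAS (3254) and SEH1L (878). For the NUP107 window shown above it lay 244 bases away. All these windows are counted here, and those of SUN2 and NUP35 each held TTTGAA and CCAAT. NRF1 letters occurred in the windows of NUP107, NUP62 and NUP50, 3 of 16 members that rose and 0 of 18 that were tested and did not pass, and in 1.24% of 35116 windows of all genes, coding and non-coding. The ETS letters occurred in 37.1% of the member windows and 10.3% of all windows, in 4 of 16 members that rose and 9 of 18 that did not pass. CCAAT occurred in 8 of 16 windows of members that rose, 7 of 18 of the others and 34.6% of all windows, and TTTGAA in 5 of 16, 3 of 18 and 15.2%. Either E2F sequence occurred in 2 of 16 (LMNA and NUP155), 1 of 18 (LEMD3) and 2.27%. These counts describe letters in the windows, and no test was made of them.

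Other genes of the same system were counted from lists. Of 28 nuclear transport factors, 11 rose (39.3%) and 1 fell (3.57%), where 12.3% and 11.6% of all genes did, with a median log2 change of 0.35. KPNA2, an importin alpha, rose from 129 ± 7.51 to 387 ± 28.6 CPM (1.59, SE 0.10; adjusted p = 0.000839), and CSE1L, which returns importin alpha to the cytoplasm, from 265 ± 9.84 to 522 ± 55.5 CPM. RANBP1 (58.3 to 133.8 CPM) and RANGAP1 (51.5 to 114.2 CPM), which help RAN hydrolyse GTP outside the nucleus, also rose. The gene that fell was XPOT, the exportin of transfer RNA, from 691 ± 17.6 to 461 ± 15.4 CPM (−0.59, SE 0.09), named after its value was seen. Without shCON replicate 1 or 2, 5 and 5 of these genes rose, where 3.59% and 4.12% of all genes did, and XPOT missed the threshold (0.113 and 0.143); without shMAGED2 replicate 1 or 2, 17 and 17 rose, where 21.1% and 23.5% of all genes did.

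Of 7 other pore-associated genes tested, 1 rose and 1 fell (14.3% each), close to the 12.3% and 11.6% of all genes. GLE1, an activator of messenger RNA export at the cytoplasmic face, rose from 59.3 ± 3.1 to 98.6 ± 4.7 CPM (log2 change 0.73, SE 0.10; adjusted p = 0.00645). SEC13, a Y complex subunit that also builds the COPII coat of vesicles leaving the endoplasmic reticulum, fell from 157 ± 0.542 to 113 ± 8.3 CPM (−0.47, SE 0.10; adjusted p = 0.0215). Both calls ended without shCON replicate 1 (GLE1 0.0629, SEC13 0.219) and without shCON replicate 2 (0.0853 and 0.21).

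Of 30 other envelope genes, 6 rose (20.0%) and 1 fell (3.33%), where 12.3% and 11.6% of all genes did. The median log2 change was 0.07, with 18 changes positive and 12 negative. The giant nesprins, which bind SUN proteins across the envelope, moved in opposite directions. SYNE2 rose from 45.7 ± 0.311 to 119 ± 13.3 CPM (1.38, SE 0.12; adjusted p = 0.00144), and SYNE1 fell from 137.5 ± 0.793 to 67.4 ± 3.61 CPM (−1.03, SE 0.10; adjusted p = 0.00186). VRK1, a kinase that phosphorylates BANF1, rose from 29 ± 0.322 to 57.3 ± 5.35 CPM, and CBX1, a heterochromatin protein of the HP1 family, from 43.9 ± 3.02 to 75.1 ± 1.35 CPM; CBX1 missed the threshold without shCON replicate 2 (0.0791). Without shCON replicate 1 or 2 the list's rises numbered 3 and 2, where 3.59% and 4.12% of all genes rose, and without shMAGED2 replicate 1 or 2 they numbered 11 and 11, where 21.1% and 23.5% did.

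Markers of proliferation also rose, where 12.3% of all genes tested rose. Their list was chosen with earlier results of these data known, so its count describes the list and does not test it. All 10 of the list passed (9 without shCON replicate 1, where BIRC5 had an adjusted p = 0.069), from 1.12 to 2.13 on the log2 scale, with a median of 1.58, and their summed level was 675 and 673 CPM in shCON against 2321 and 2101 CPM in shMAGED2. TYMS, which makes thymidylate, rose from 37 ± 0.907 to 149 ± 12.6 CPM and topoisomerase TOP2A from 149 ± 5.82 to 451 ± 22.8 CPM. In bulk RNA, a larger share of cells in a phase of the cycle and more transcript per cell cannot be told apart, and the part of proliferation in the changes of pore and lamina genes was not tested.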

How the data were processed

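RNA sequencing of 4 U87-MG libraries, 2 a group, was used as deposited. The authors deposited raw counts per gene and FPKM values per gene, and the submitters' processing notes name HISAT2, StringTie and SAMtools, with hg38 as the build. For the annotation, the strand setting and the rule for reads that match several places, nothing is given in the sources used here. Of the members that rose, NUP62 (ATF5), NUP88 (RABEP1 and RPAIN), NUP188 (SH3GLB2) and NUP98 (PGAP2) overlap coding genes on the other strand. On the same strand NUP98 also overlaps CHRNA10, SUN1 overlaps GET4 and SUN2 overlaps DNAL4. How reads in such overlaps were assigned is not known. The 38 members and the other gene lists were chosen with earlier results of these data known. The test was edgeR's, version 4.0.16 under R 4.3.3, on counts (filterByExpr, TMM factors, robust quasi-likelihood fit on the group, Benjamini-Hochberg over 15293 genes, threshold 0.05), with 2 residual and a median of 4.01 prior degrees of freedom; the SE is the log2 change over the root of F. CPM are TMM-scaled, and levels of different genes were compared in FPKM. Alternatives were other scalings and filters, DESeq2 1.42.0, limma-voom (limma 3.58.1), limma on log2(FPKM + 1) and log2(FPKM + 0.1), a replicate block, and leaving out each library; leaving libraries out of the lamin ratio, and taking it from CPM, were added after seeing the data. Named genes were all members by role, and the genes of smallest p in each other list. Libraries of a group were compared by chi-square per degree of freedom, 7.35 for the shCON pair and 93.89 for the shMAGED2 pair, against 144.51 to 235.3 across groups, so none was treated as a duplicate. Coordinates are those of GENCODE 29 on hg38, counted from 1. Start-site windows come from RefSeq on GRCh38.p14. For each member the listed start nearest the GENCODE gene start was used. Any other start of a member was left out of the member counts. Shared sequence was the share of 50-base windows of the longest coding transcript found in other genes' transcripts.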

Additional observations from a re-analysis of the deposited data

How the results depend on the processing

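With 2 libraries a group, the number of calls depended most on which library was left out. Leaving out 1 library gave 1100 to 7447 changed genes over all genes (567 to 3725 that rose, 533 to 3722 that fell), 6 to 29 changed pore and lamina genes (6 to 26 that rose, 0 to 3 that fell), and 8 to 40 changed genes in the lists of transport, other pore and other envelope genes (7 to 32 that rose, 1 to 8 that fell). The low counts came without an shCON library, where the scatter is taken from the shMAGED2 pair alone (chi-square per degree of freedom 93.89). The high counts came without an shMAGED2 library, where it is taken from the shCON pair alone (7.35). Why the pairs differ in scatter was not tested. Of 12554 genes tested on log2(FPKM + 0.1), 1236 rose, against 1874 of 15293 by edgeR. Rises among pore and lamina genes numbered 11 to 19 under the other alternatives, and falls 0. Replicate numbers are not stated to pair the libraries, and the deviations of same-numbered libraries had a correlation of −0.034 over 15293 genes; with a replicate block 15 members rose, LMNA being lost (adjusted p = 0.078). Of 555 values for single members, 480 kept their direction and side of the threshold, 32 lost it, 29 passed it and 14 turned sign. The log2 change of NUP133 was −0.04 with upper-quartile factors, −0.047 with library size alone, −0.002 with limma-voom, −0.015 with at least 5 CPM, −0.01 with the replicate block, −0.061 and −0.067 on log2(FPKM + 1) and log2(FPKM + 0.1), −0.034 without shCON replicate 2, and from −0.23 (without shMAGED2 replicate 2) to 0.205 (without shMAGED2 replicate 1) with 1 library left out. With 1 library left out, NUP58 ranged from −0.084 to 0.026, RAE1 from −0.279 to 0.208 (0.087 without shCON replicate 1), and EMD from −0.104 to 0.087 (0.045 without shMAGED2 replicate 2). Depth limits only NUP210 among the members.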

Other observations

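Across the 37 tested members, the gap between the shMAGED2 libraries (log2 of replicate 2 over replicate 1) had a Pearson correlation of −0.43 and a Spearman correlation of −0.40 with the length of the longest coding transcript, and of −0.19 and −0.11 with its GC content. For the log2 change between groups the values were 0.03 and 0.13 with length, and 0.03 and 0.14 with GC content. These correlations are across genes of the same libraries, which are not independent replicates, and are given as a description.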
